A study of Mus musculus with 18 samples.

Results

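The spleens of streptozotocin-treated mice that had received gut microbiota from control donors (Con-FMT) were compared with the spleens of control mice (Con). Of the 18 spleen RNA-seq libraries in the series, 6 enter the comparison, 3 from each group. They were taken by the treatment named in the sample labels, and no measured value was used to choose them. All mice were male ICR, an outbred strain, and were 10 weeks old when the spleen was frozen. Con mice were kept on a regular diet with saline. Con-FMT mice were given a single dose of streptozotocin (STZ), then the pooled small intestinal content of water-dosed control mice by mouth every day for 2 weeks, and were kept until the end of the experiment. The question was what still differs from the untreated spleen after the control transplant. Con-FMT mice differ from Con mice by both STZ and the inoculations, so the effects of these treatments cannot be told apart in this comparison. The donor content was pooled, so the 3 Con-FMT libraries share 1 inoculum. The STZ group (STZ alone, 3 libraries) is given beside some results for its values, and its contrast with Con uses the same Con libraries as the contrast reported here. Other groups of 3 libraries are given beside some genes. A10 mice were given alginate oligosaccharide at 10 mg/kg, and STZ-A10 mice STZ and the same dose. A10-FMT mice were given STZ and microbiota from donors dosed with it at 10 mg/kg. All 18 libraries entered the fit that estimates the spread.

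The spleen filters blood in its red pulp, where macrophages remove old red cells and recycle their iron, and mounts immune responses in its white pulp, where B and T cells are held in place by chemokines. It stores platelets and, in mice, makes red cells, neutrophils and platelets alongside the bone marrow. STZ is taken up by the insulin-producing beta cells of the pancreas and kills them, and high blood glucose follows. A fecal microbiota transplant moves gut microbes from donors to recipients.

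Levels are in RPKM, a read number corrected for gene length and library size. The RPKM of the 6 libraries summed to 673221 to 831121, and 12208 to 12893 genes reached an RPKM of 1. The files hold no read counts, so sequencing depth is unknown. The 10 globin genes made up 27.7% ± 6.43 (SD, n = 3) of the summed RPKM in Con and 28.2% ± 5.55 in Con-FMT (two-sided exact permutation p 0.9, where 3 libraries against 3 cannot go below 0.1). The Con libraries were less alike than the Con-FMT libraries. Pearson's r across genes between library pairs was 0.948 to 0.979 within Con, 0.988 to 0.993 within Con-FMT and 0.961 to 0.983 between the groups. The SD of the log2 level was larger in Con for 9423 genes (75.8%), with a median of 0.182 in Con and 0.101 in Con-FMT. Each Con library stood apart in a different gene list. Con replicate 1 had the highest neutrophil transcripts, Con replicate 2 the highest sperm transcripts and Con replicate 3 the lowest pancreatic transcripts, and results that rest on these libraries are given with and without them.

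Few genes separated Con-FMT from Con. Of 12426 genes with an RPKM of at least 1 in at least 3 of the 6 libraries, 1 passed an adjusted p of 0.05 (0.00805%), and it was Kap. Fold changes are differences of mean log2(RPKM + 1), Con-FMT minus Con, tested with limma. An unadjusted p under 0.05 was reached by 476 genes (3.83%), fewer than the 621 that a threshold of 0.05 gives by chance. Of these, 143 were higher in Con-FMT (1.15% of all genes tested) and 333 lower (2.68%). With quantile normalization 288 of 687 were higher. The libraries of the groups did not overlap for 771 genes that were higher in Con-FMT (6.2%) and for 686 that were lower (5.52%). The median fold change of all genes was near 0, at -0.00371. The median SE was 0.163 and the median half-width of the 95% interval was 0.346. For 11740 genes (94.5%) the interval lay within 1 log2 unit of no difference, and 132 genes had a fold change of at least 1 in size, 52 higher and 80 lower. The plot of all genes shows these at the margins of the cloud, and 71 of the 132 belonged to the acinar pancreas, hepatocyte or neutrophil granule lists.

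**Figure D1:**
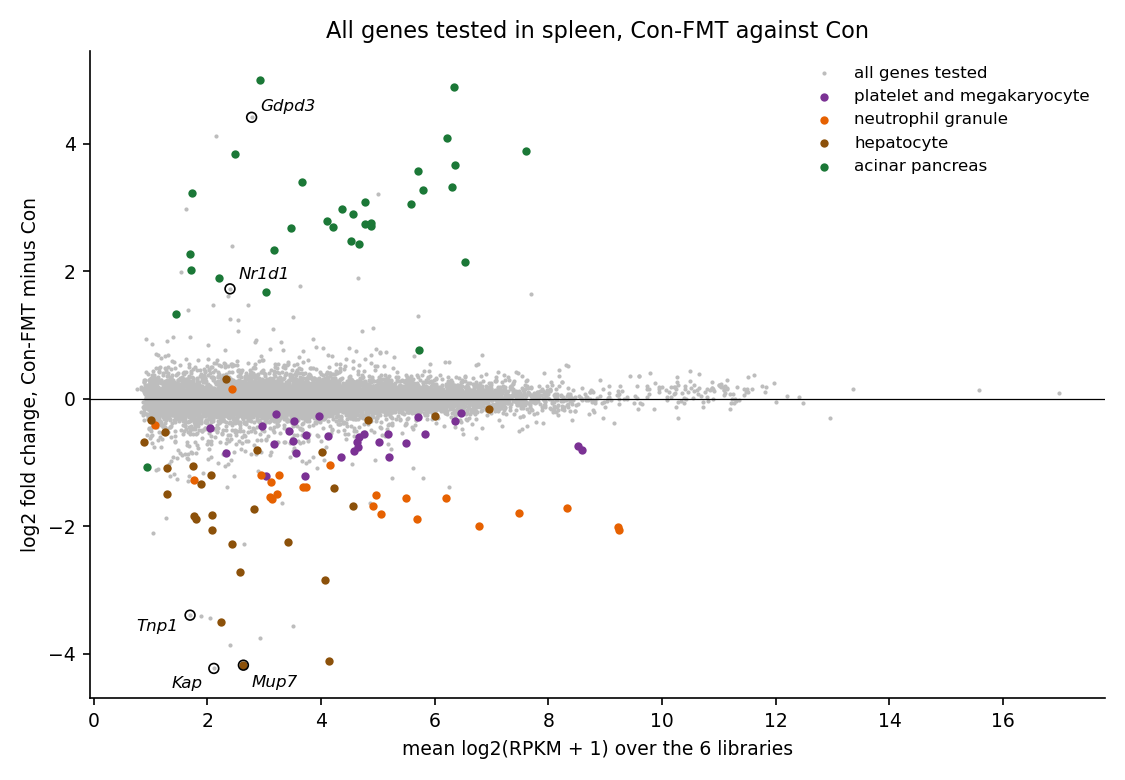
Each point is a gene, placed by its mean log2(RPKM + 1) over the 6 libraries (horizontal) and by its log2 fold change, Con-FMT minus Con (vertical). Coloured points belong to 4 gene lists, circles mark 5 named genes, and most of the 12426 genes lie close to the line at 0.

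The adjusted count depended on which library was present. It was 11 without Con replicate 1, 5 without Con replicate 2 and 8 without Con replicate 3, all of them lower in Con-FMT, and 1 without any single Con-FMT library. The genes added without a Con library were sperm genes (Tnp1, Tnp2, Prm1, Prm2), liver genes (among them Mup7, Fabp1, Serpinc1 and Orm1) and Hp and AA467197. When Kap was not tested, because an RPKM of 1 was required in all 6 libraries, 0 genes passed limma's adjusted threshold and 399 had an unadjusted p under 0.05. The unadjusted count was 298 without Con-FMT replicate 1.

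Kap fell to a listed value of 0 in Con-FMT. Kap (chromosome 6, 133849851 to 133853762, minus strand of GRCm38, protein coding) encodes the kidney androgen-regulated protein, a transcript of the proximal tubule. It was 13.3, 20.1 and 21.0 RPKM in the Con libraries and was listed at 0 in all 3 Con-FMT libraries. The groups did not overlap (limma adjusted p 1.18e-09), and Kap stayed past the threshold in 16 of 16 alternatives in which it was tested, with adjusted p from 5.2e-17 to 0.0091. It passed the expression filter through Con alone, and it also passed the threshold without a filter. In the STZ libraries it was 23.68, 25.95 and 20.91, within or above the range of Con. It was listed at 0 in all 3 libraries of A10, mice given alginate oligosaccharide with neither STZ nor a transplant. Whether the Con and STZ spleens were dissected or sequenced apart from the others is not given in the sources used here, and its part in the Kap values was not tested.

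Other kidney transcripts were near 0 in both groups. The kidney list holds 12 genes, of which Kap alone was tested. Of the other 11, the mean was lower in Con-FMT for 8, higher for 2 and equal for 1. The genes named here were chosen after their values were seen. Miox, a proximal tubule enzyme that breaks down inositol, was 0.29, 0.15 and 0.15 RPKM in Con and was listed at 0 in Con-FMT. Umod, the main urinary protein of the thick ascending limb, reached at most 0.13 in Con and was listed at 0 in Con-FMT. Lrp2, the endocytic receptor megalin, was 0.09, 0.22 and 0.12 in Con and 0.25, 0.32 and 0.16 in Con-FMT. The salt transporter Slc12a3 was 0.25, 0.11 and 0.13 in Con and 0.11, 0.24 and 0.28 in Con-FMT. For Lrp2 and Slc12a3 the groups overlapped. Summed over the list the level was 14.8, 21.6 and 22.1 in Con and 0.78, 1.01 and 0.88 in Con-FMT, and the Con sums are nearly all Kap. Without Kap the sum was 1.51, 1.55 and 1.16 in Con, against the same 0.78, 1.01 and 0.88 in Con-FMT. The part of kidney RNA in the Kap difference was not tested.

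**Figure D2:**
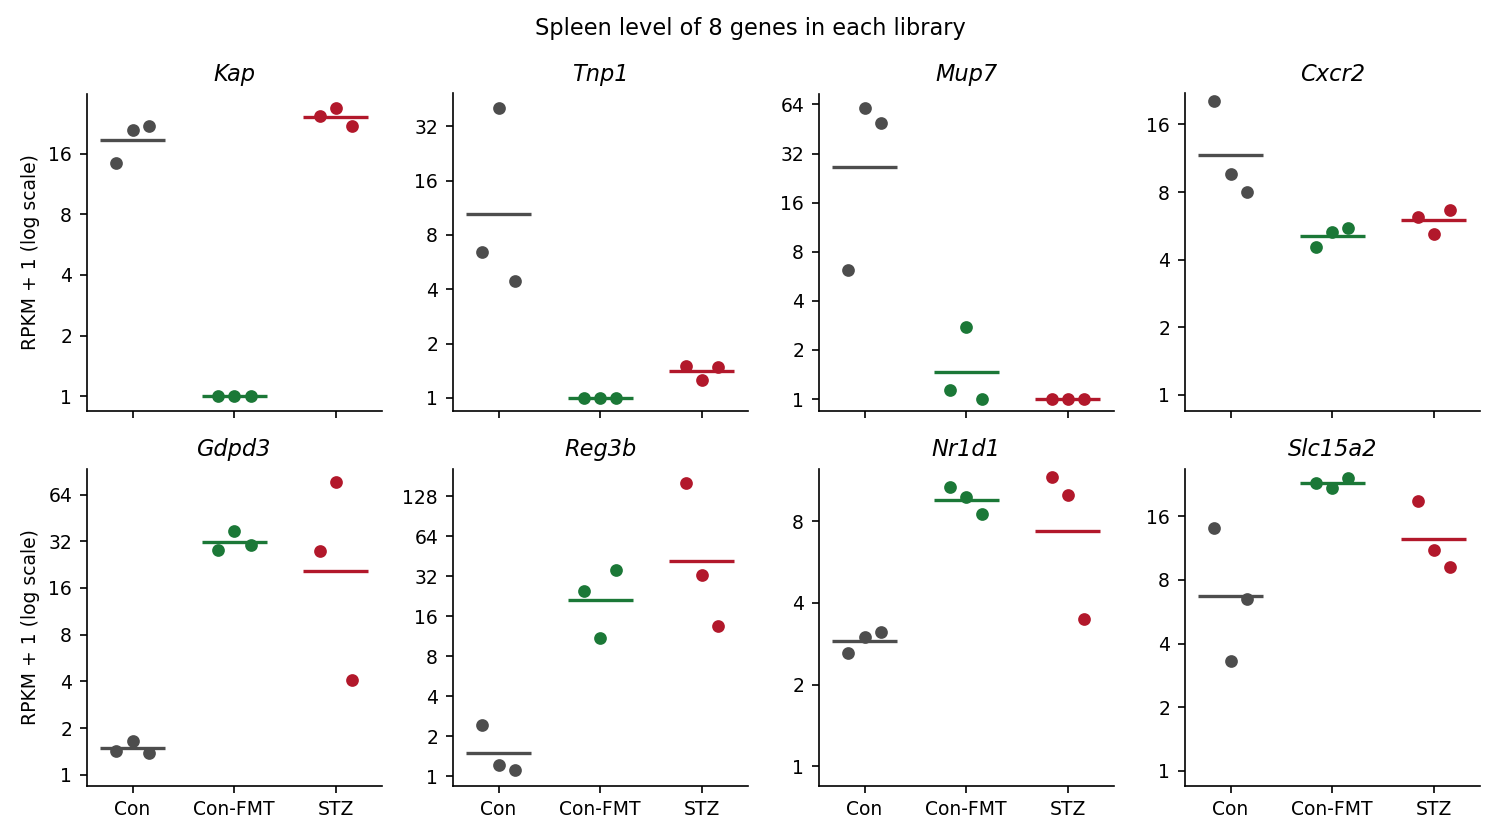
RPKM + 1 of 8 genes on a log scale, with 1 point per library and a line at the mean of the log values, in Con, Con-FMT and STZ (3 libraries each). Kap is listed at 0 in Con-FMT and at 13.33 to 25.95 RPKM in Con and STZ, and Gdpd3 is under 1 RPKM in Con and at 27.3 to 36.6 in Con-FMT.

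Beyond Kap, the text names genes that did not pass the adjusted threshold but had the lowest unadjusted p among those whose groups did not overlap, 12 higher and 10 lower in Con-FMT. Since non-overlap chose them, it is a description. Gdpd3, a lysophospholipase that releases lysophosphatidic acid, lies on chromosome 7 (126766334 to 126775649, plus strand). It passed the expression filter through Con-FMT alone. Gdpd3 was 0.43, 0.66 and 0.38 RPKM in Con and 27.3, 36.6 and 29.2 in Con-FMT. All 3 Con libraries were under 1 RPKM and all 3 Con-FMT libraries within a narrow range. The log2 fold change was 4.42 (SE 0.798, 95% interval 2.72 to 6.12, unadjusted p 5.26e-05, limma adjusted p 0.131). With only the 6 libraries in the fit the limma adjusted p was 6.28e-05, and without a filter on low values it was 0.153. In the STZ libraries Gdpd3 was 26.9, 76.0 and 3.08, all above Con. It was also above Con in A10, without STZ or a transplant (11.07, 3.44 and 19.72). In STZ-A10 (STZ plus alginate oligosaccharide) it was 10.31, 24.98 and 54.02. In A10-FMT (STZ plus microbiota from donors given alginate oligosaccharide) it was 0.36, 0.37 and 0.27, under 1 RPKM like Con.

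Slc15a2, the peptide transporter PEPT2, was 13.1, 2.32 and 5.53 RPKM in Con and 21.96, 20.85 and 23.34 in Con-FMT (log2 fold change 1.77, SE 0.472, limma adjusted p 0.86). The Con libraries differed widely and the Con-FMT libraries hardly at all. Ier3, an immediate early gene that limits apoptosis, was 4.28, 4.46 and 4.54 RPKM in Con and 5.75, 6.82 and 8.63 in Con-FMT (0.56, SE 0.168, limma adjusted p 0.929). STZ libraries held 9.71, 15 and 11.61 RPKM of Ier3, above both groups. Dhrsx, Armc6 and Dtwd1 had small differences of 0.41, 0.35 and 0.42 on the log2 scale, with SEs of 0.101 to 0.125. The remaining 6 of the 12 higher genes were the clock gene Nr1d1, the pancreatic genes Reg3b, Reg3a and Prss3, and the predicted genes Gm5771 and Gm40991, with fold changes of 1.73 to 5.0.

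The circadian clock is a feedback loop in which CLOCK and BMAL1 (the product of Arntl) switch on Per, Cry and Nr1d genes through E-boxes, and the products of these genes switch the loop off. Dbp, Tef and Nfil3 carry its output through D-boxes, where Dbp and Tef activate and Nfil3 represses. Of 21 clock genes, 19 were tested. Their median fold change was 0.13, and 0 passed the adjusted threshold. At an unadjusted p under 0.05, 3 were higher and 1 lower, against 1.15% and 2.68% of all genes. Without overlap, 4 were higher and 1 lower, against 6.2% and 5.52% of all genes. The time of day at which the mice were killed is not given in the sources used here, and its part in these values was not tested.

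The promoters of Per1 and Nr1d1 are shown because both are direct targets of the loop and both were among the 3 clock genes higher at an unadjusted p under 0.05. The sequences are from RefSeq, build GRCm38.p6, from 250 bases before to 50 after the start, with the E-box CACGTG in capitals where it occurs. Of 17 clock genes with a window, 5 held CACGTG in at least 1 window. Of all 32851 windows of this length, 7.15% held it. The first counts genes, which can have several windows, and the second counts windows, so they cannot be compared. CACGTG reads the same on both strands. Per1 has 2 windows on the plus strand. The one shown, chr11:69098699-69098998, holds 1 match, and the other, chr11:69099902-69100201, holds 0. The Nr1d1 window is chr11:98775328-98775627 on the minus strand and holds none.
Per1: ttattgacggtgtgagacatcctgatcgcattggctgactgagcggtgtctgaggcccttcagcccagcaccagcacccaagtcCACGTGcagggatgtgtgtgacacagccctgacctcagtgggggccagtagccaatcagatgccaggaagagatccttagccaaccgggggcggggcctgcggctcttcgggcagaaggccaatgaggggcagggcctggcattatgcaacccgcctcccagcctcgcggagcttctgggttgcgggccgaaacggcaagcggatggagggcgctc
Nr1d1: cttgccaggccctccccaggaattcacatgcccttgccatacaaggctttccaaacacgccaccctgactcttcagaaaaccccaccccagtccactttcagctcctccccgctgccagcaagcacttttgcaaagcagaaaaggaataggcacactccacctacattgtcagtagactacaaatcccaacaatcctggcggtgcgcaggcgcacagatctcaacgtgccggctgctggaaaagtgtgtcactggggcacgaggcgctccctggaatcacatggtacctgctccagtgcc

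Nr1d1 encodes REV-ERB alpha, a repressor of Arntl that binds heme (chromosome 11, 98767932 to 98775333, minus strand). It was 1.61, 1.99 and 2.13 RPKM in Con and 9.67, 8.79 and 7.47 in Con-FMT. Every Con-FMT library was far above every Con library. The log2 fold change was 1.73 (SE 0.39, 95% interval 0.90 to 2.56, unadjusted p 0.000462, limma adjusted p 0.442), and with only the 6 libraries in the fit the adjusted p was 0.0107. The STZ libraries were uneven, at 10.6, 8.95 and 2.49. In A10, without STZ or a transplant, Nr1d1 was 5.68, 6.09 and 3.15, also above every Con library. It was 12.68, 12.92 and 7.6 in STZ-A10 and 4.09, 4.99 and 1.58 in A10-FMT, where the last value lay under Con.

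Dbp, chosen for the text after its values were seen, was 4.89, 7.12 and 7.15 RPKM in Con and 16.2, 16.8 and 17.2 in Con-FMT (1.28, SE 0.481, unadjusted p 0.0176, limma adjusted p 1). The groups did not overlap. Per1, also chosen after its values were seen, was 5.42, 7.04 and 9.14 in Con and 8.89, 9.27 and 11.4 in Con-FMT (0.42, SE 0.177, unadjusted p 0.031, limma adjusted p 1), and its groups overlapped. Nfil3, the repressor at D-boxes, was 3.68, 3.85 and 3.02 in Con and 2.33, 2.42 and 1.77 in Con-FMT (-0.51, SE 0.16, limma adjusted p 0.929). Nfil3 was thus lower in the libraries in which Nr1d1 and Dbp were higher. Arntl and Clock, which drive the loop, had fold changes of -0.23 and -0.17 with overlapping groups. In the STZ libraries Dbp was 21.2, 7.68 and 3.69 RPKM and fell on both sides of the Con values. Per1 was 15.25, 20.24 and 12.23 in STZ, above every Con and Con-FMT library.

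**Figure D3:**
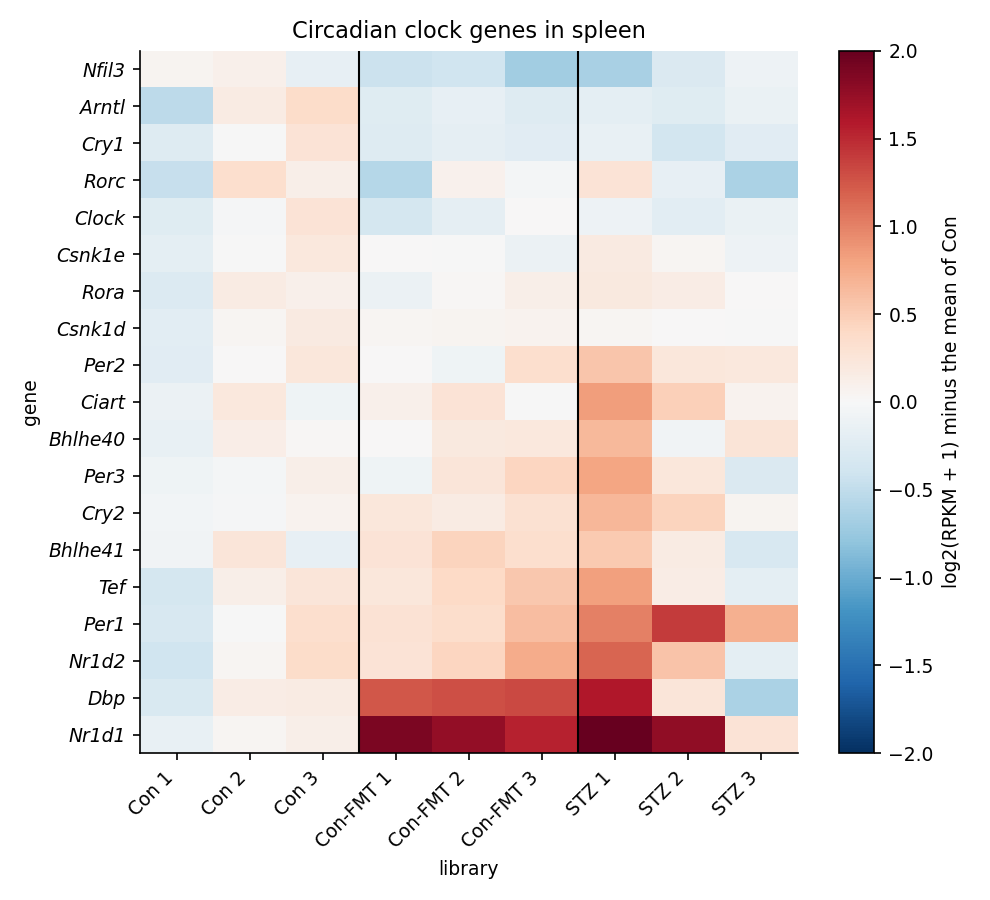
Level of the 19 tested clock genes (rows, ordered by fold change) in the 3 Con, 3 Con-FMT and 3 STZ libraries (columns), coloured by log2(RPKM + 1) minus the mean of Con. Nr1d1 and Dbp are red in all 3 Con-FMT libraries, in which the rest of the loop stays pale.

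Genes of the acinar pancreas, which secretes digestive enzymes, had the highest list median. Of 36 genes in the list, 32 were tested and 31 had a positive fold change, with a median of 2.77 against -0.00371 for all genes. The adjusted threshold was passed by 0, 12 were higher at an unadjusted p under 0.05 (all genes, 1.15%) and 11 were higher without overlap (all genes, 6.2%). Summed over the list the level was 2781, 452 and 32.9 RPKM in Con and 4355, 2628 and 4354 in Con-FMT. Con replicates 1 to 3 differed by far more than the Con-FMT libraries, and Con replicate 1 lay above Con-FMT replicate 2. The median was 1.5 without Con replicate 3 and 4.08 without Con replicate 1. In STZ against Con the median was 2.75, with sums of 8424, 3836 and 1869.

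Reg3b, a secreted lectin that acinar and gut cells make in inflammation, was 1.42, 0.22 and 0.12 RPKM in Con and 24.0, 10.0 and 34.6 in Con-FMT (3.84, SE 0.785, limma adjusted p 0.251). Reg3a, of the same family, was 0.29 in Con replicate 1 and listed at 0 in the other 2, and was 8.05, 3.58 and 24.4 in Con-FMT (3.22, SE 0.697, limma adjusted p 0.35). Both were higher in every Con-FMT library than in any Con library. Reg3a passed the expression filter through Con-FMT alone. The trypsinogen Prss3 was 1.20, 0.10 and 0 RPKM in Con and 87.6, 66.9 and 12.2 in Con-FMT (5.0, SE 1.17, limma adjusted p 0.474). Trypsinogen genes are near-identical copies that share reads, so the split of Prss3, Try5 and Gm5771 is uncertain, and Gm5771 passed the filter through Con-FMT alone. Ctrb1, chymotrypsinogen, was 438, 69.1 and 3.30 in Con and 957, 580 and 771 in Con-FMT (3.89, SE 1.64, limma adjusted p 1). Amy2a5, the pancreatic amylase, was chosen after its values were seen because its groups overlapped, at 478, 72.3 and 1.44 in Con and 171, 99.7 and 430 in Con-FMT. The part of pancreatic tissue in the Reg3b and Reg3a differences was not tested.

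Sperm transcripts were lower in every Con-FMT library than in any Con library by their sum, without passing the adjusted threshold. Of 20 testis germ cell genes, 5 were tested, and 3 of them passed the expression filter through Con alone. Prm1, a protamine that packs sperm DNA, was 11.3, 85.6 and 6.56 RPKM in Con and 1.06, 0.28 and 0 in Con-FMT (-3.86, SE 0.655, limma adjusted p 0.112). Tnp1, a transition protein that precedes the protamines, was 5.44, 39.5 and 3.47 in Con and listed at 0 in every Con-FMT library (limma adjusted p 0.061). All 3 Con libraries held these transcripts, Con replicate 2 the most. Prm2 and Tnp2 showed the same order of libraries, with fold changes of -3.41 and -3.44. Summed over the 20 genes the level was 43.2, 342 and 22.8 in Con, 5.02, 4.04 and 3.62 in Con-FMT and 13.4, 7.29 and 9.63 in STZ. The sums were 5.13, 5.18 and 4.98 in A10, without STZ or a transplant. They were 6.26, 5.14 and 4.68 in STZ-A10 and 4.39, 4.04 and 3.58 in A10-FMT. The Con libraries thus lay above those of every other group. Without Con replicate 2 Prm1, Prm2, Tnp1 and Tnp2 all passed, with limma adjusted p of 5.26e-05 for Tnp1 and 0.0303 for Prm1.

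Of 44 hepatocyte genes 28 were tested. Their median was -1.45, 27 had a negative fold change, 19 were lower at an unadjusted p under 0.05 (all genes, 2.68%) and 4 were lower without overlap (all genes, 5.52%), while 0 passed the adjusted threshold. Mup7, a major urinary protein, was 5.15, 59.8 and 48.6 RPKM in Con and 0.13, 1.75 and 0 in Con-FMT (-4.18, SE 0.834, limma adjusted p 0.232). Mup genes are near-identical copies that share reads, so Mup7 and Mup1 are uncertain as single genes. Orm1, the acute phase protein orosomucoid, was 9.93, 9.38 and 3.45 in Con and 1.38, 1.52 and 0.89 in Con-FMT (-1.83, SE 0.365, limma adjusted p 0.232). Summed over the list, Con replicate 1 held 368 RPKM, close to the 282, 348 and 234 of Con-FMT, and Con replicates 2 and 3 held 1189 and 949. The list median was -1.97 without Con replicate 1 and -1.10 without Con replicate 2. Serpina1b, at 98.0, 150 and 149 in Con and 115, 128 and 106 in Con-FMT, overlapped (-0.16, limma adjusted p 1). In STZ against Con the list median was -2.20.

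**Figure D4:**
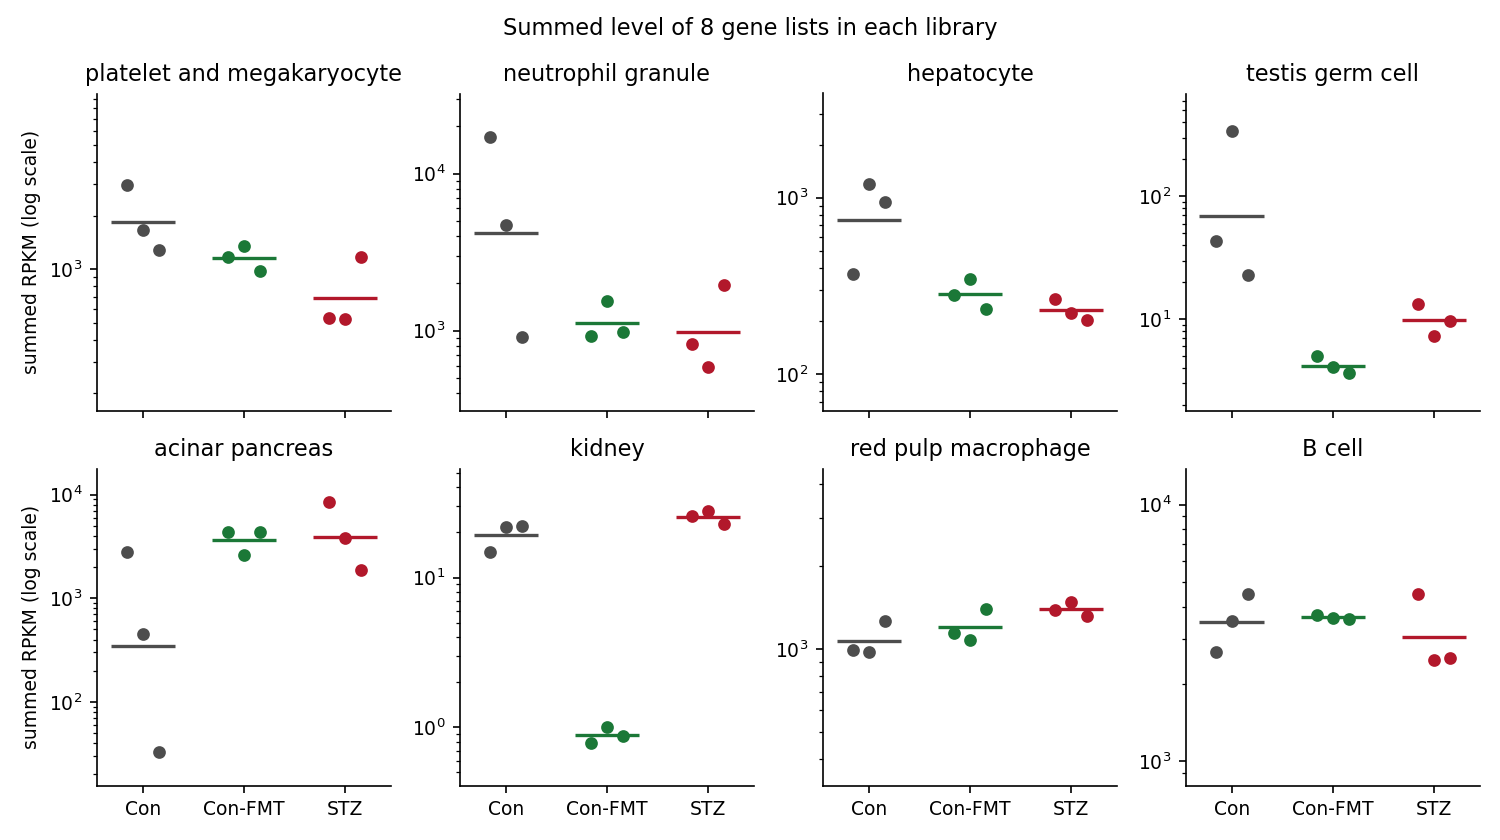
Summed RPKM of 8 gene lists on a log scale, with 1 point per library and a line at the mean of the log values, in Con, Con-FMT and STZ. The germ cell and kidney sums of the Con-FMT libraries lie under all Con libraries, where the kidney sum of Con is nearly all Kap, while red pulp macrophage and B cell sums overlap.

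Platelet and megakaryocyte genes were the spleen-resident list with the most members lower in Con-FMT. All 30 genes of the list were tested and all 30 had a negative fold change, with a median of -0.63. At an unadjusted p under 0.05, 17 were lower (all genes, 2.68%), and 14 did not overlap (all genes, 5.52%), while 0 passed the adjusted threshold. Cavin2, a caveolar coat protein abundant in platelets, was 35.11, 24.83 and 32.02 RPKM in Con and 21.2, 19.6 and 15.6 in Con-FMT (-0.68, SE 0.17, limma adjusted p 0.735). In A10, without STZ or a transplant, Cavin2 was 19.27, 24.36 and 19.87, also under every Con library. Slc6a4, the transporter by which platelets take up serotonin, was 33.2, 17.4 and 11.9 in Con and 7.39, 9.88 and 6.05 in Con-FMT (-1.22, SE 0.356, limma adjusted p 0.929). Pf4, platelet factor 4, was 897, 451 and 325 in Con and 286, 368 and 237 in Con-FMT (-0.80, SE 0.373, limma adjusted p 1), and its groups overlapped. Con replicate 1 was the highest library for Cavin2, Slc6a4 and Pf4. Without it the list median was -0.32, and without Con replicate 3 it was -0.87. STZ against the same Con libraries had a median of -1.34. In that contrast 28 of 30 genes were lower at an unadjusted p under 0.05 (all genes, 1315 of 12426 in either direction). In bulk tissue, fewer cells of a type and less RNA per cell cannot be told apart.

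Gucy1b1, the beta subunit of the nitric oxide receptor, was 11.8, 9.87 and 10.9 RPKM in Con and 6.26, 6.79 and 6.20 in Con-FMT (-0.67, SE 0.157, limma adjusted p 0.474). Vcl, vinculin of cell adhesions, was 51.9, 38.2 and 37.4 in Con and 27.4, 29.6 and 26 in Con-FMT (-0.59, SE 0.137, limma adjusted p 0.474). Both were lower in every Con-FMT library by modest and even amounts. In STZ their fold changes against the same Con libraries were -0.75 and -0.51. In A10, without STZ or a transplant, Gucy1b1 was 6.94, 8.85 and 6.37 RPKM and Vcl 30.48, 33.11 and 30.09. Every A10 library thus also lay under every Con library for both genes.

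Neutrophil granule genes were highest by far in Con replicate 1, and by their sum Con replicate 2 also lay above every Con-FMT library. Of 25 genes 23 were tested, 22 had a negative fold change with a median of -1.54, and 14 were lower at an unadjusted p under 0.05 (all genes, 2.68%). Those without overlap were 2 of 23, near the 5.52% of all genes. The summed level was 17100, 4697 and 914 RPKM in Con and 931, 1549 and 986 in Con-FMT, and Con replicate 3 lay under all 3 Con-FMT libraries. S100a8, a subunit of calprotectin, was 5154, 1315 and 276 in Con and 229, 421 and 269 in Con-FMT (-2.05, SE 0.762, limma adjusted p 1). The median was -0.61 without Con replicate 1 and -2.60 without Con replicate 3. Cxcr2 and Csf3r, receptors of mature neutrophils, were the 2 genes without overlap. Cxcr2 was 19.4, 8.65 and 7.01 in Con and 3.53, 4.32 and 4.51 in Con-FMT (-1.19, SE 0.288, limma adjusted p 0.589). Csf3r, the G-CSF receptor, was 44.2, 20.0 and 16.5 in Con and 12.53, 10.91 and 10.96 in Con-FMT (-1.04, SE 0.326, limma adjusted p 0.929). In A10, without STZ or a transplant, Cxcr2 was 4.51, 5.1 and 6.68 and Csf3r 9.8, 10.84 and 14.79. Every A10 library thus also lay under every Con library for Cxcr2 and Csf3r. Lcn2 of the glucocorticoid list, which neutrophils also store in granules, was 952, 259 and 42.1 in Con and 46.7, 68.8 and 49.9 in Con-FMT.

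Of 24 tested red pulp macrophage genes, 21 had a positive fold change with a median of 0.12, and 0 had an unadjusted p under 0.05. The groups did not overlap for 1 gene, which was higher in Con-FMT (all genes, 6.2%). It was Cd5l, a macrophage survival factor, at 16.03, 15.23 and 16.72 RPKM in Con and 19.1, 21.1 and 29.5 in Con-FMT (0.49, SE 0.251, limma adjusted p 1). C1qa, a subunit of complement C1q, had a fold change of 0.17 and overlapping groups. The same list had a median of 0.36 in STZ against Con. There 12 of 24 genes were higher at an unadjusted p under 0.05 (all genes, 1315 of 12426 in either direction). Of 35 erythroid genes, 25 had a negative fold change with a median of -0.07. Car1, carbonic anhydrase 1 of erythroid cells, was 288, 304 and 233 in Con and 417, 431 and 328 in Con-FMT (0.51, SE 0.249, limma adjusted p 1). It was 734, 829 and 643 in STZ, above both groups.

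A list of 19 genes holds those whose proteins were examined in the spleen in the study, together with iron and apoptosis genes, which the study chose in part on these animals. Of these, 18 were tested, 0 passed the adjusted threshold, and the median fold change was 0.05. Cd163, the hemoglobin scavenger receptor, was 1.28, 1.42 and 1.28 RPKM in Con and 1.34, 1.59 and 1.27 in Con-FMT (0.04, SE 0.226, limma adjusted p 1), and 2.96, 5.24 and 2.43 in STZ. Con and Con-FMT overlapped and STZ lay above both. Ccl21a, a T-zone chemokine with near-identical copies that share reads, was 575, 1115 and 707 in Con and 939, 1161 and 967 in Con-FMT (0.41, SE 0.406). Its receptor Ccr7 was 31.6, 42.6 and 68.0 in Con and 43.5, 44.3 and 46.5 in Con-FMT (-0.01, SE 0.35), and Mki67, the proliferation marker Ki67, had a fold change of -0.15 (SE 0.376). None of these 3 groups of values separated.

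Trp53, which encodes p53, was 70.9, 81.1 and 90.5 RPKM in Con and 103.75, 94.97 and 92.79 in Con-FMT (0.27, SE 0.131, unadjusted p 0.0575). Its pro-apoptotic target Bax was 67.5, 72.5 and 62.2 in Con and 88.6, 80.3 and 76.9 in Con-FMT (0.28, SE 0.12, unadjusted p 0.0351). Both were higher in every Con-FMT library, by less than 0.3 on the log2 scale, and both had a limma adjusted p of 1. The anti-apoptotic genes Bcl2 and Bcl2l1 had fold changes of 0.07 and -0.19, with overlapping groups. Hp, haptoglobin of liver and neutrophils, was 116, 48.9 and 12.3 in Con and 13.6, 13.2 and 10.1 in Con-FMT (-1.69, SE 0.543, limma adjusted p 0.929). Of the iron genes, the exporter Slc40a1 had a fold change of -0.12, heme oxygenase Hmox1 0.20, the red pulp macrophage regulator Spic 0.05, the transferrin receptor Tfrc -0.10, and the ferritin subunits Fth1 and Ftl1 0.11 and 0.08. Of these 6 genes, 0 had an unadjusted p under 0.05.

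B cell genes (22 tested) had a median of -0.01, plasma cell genes (20) -0.05, T cell genes (28) 0.18 and white pulp chemokines and their partners (18) -0.01, and in each 0 genes had an unadjusted p under 0.05. In STZ against the same Con libraries the T cell median was -0.29. Ctla4, an inhibitory receptor of T cells, was 3.15, 5.29 and 3.20 RPKM in Con and 4.69, 7 and 6.23 in Con-FMT (0.53, SE 0.268, limma adjusted p 1). Con replicate 2 overlapped the Con-FMT values. Natural killer and cytotoxic genes (20) had a median of -0.20, and 16 of the fold changes were negative. At an unadjusted p under 0.05, 0 were higher and 2 lower (all genes, 1.15% and 2.68%), and 1 was higher and 4 lower without overlap (all genes, 6.2% and 5.52%). Klra4, a Ly49 receptor with close paralogs that share reads, was 4.08, 4.23 and 3.87 in Con and 3.18, 1.18 and 2.59 in Con-FMT (-0.66, SE 0.233, limma adjusted p 1). Dendritic cell and MHC class II genes (28) had a median of 0.13, and 22 of the fold changes were positive. Itgax, the integrin CD11c, had a fold change of 0.43 (SE 0.188, unadjusted p 0.036).

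**Figure D5:**
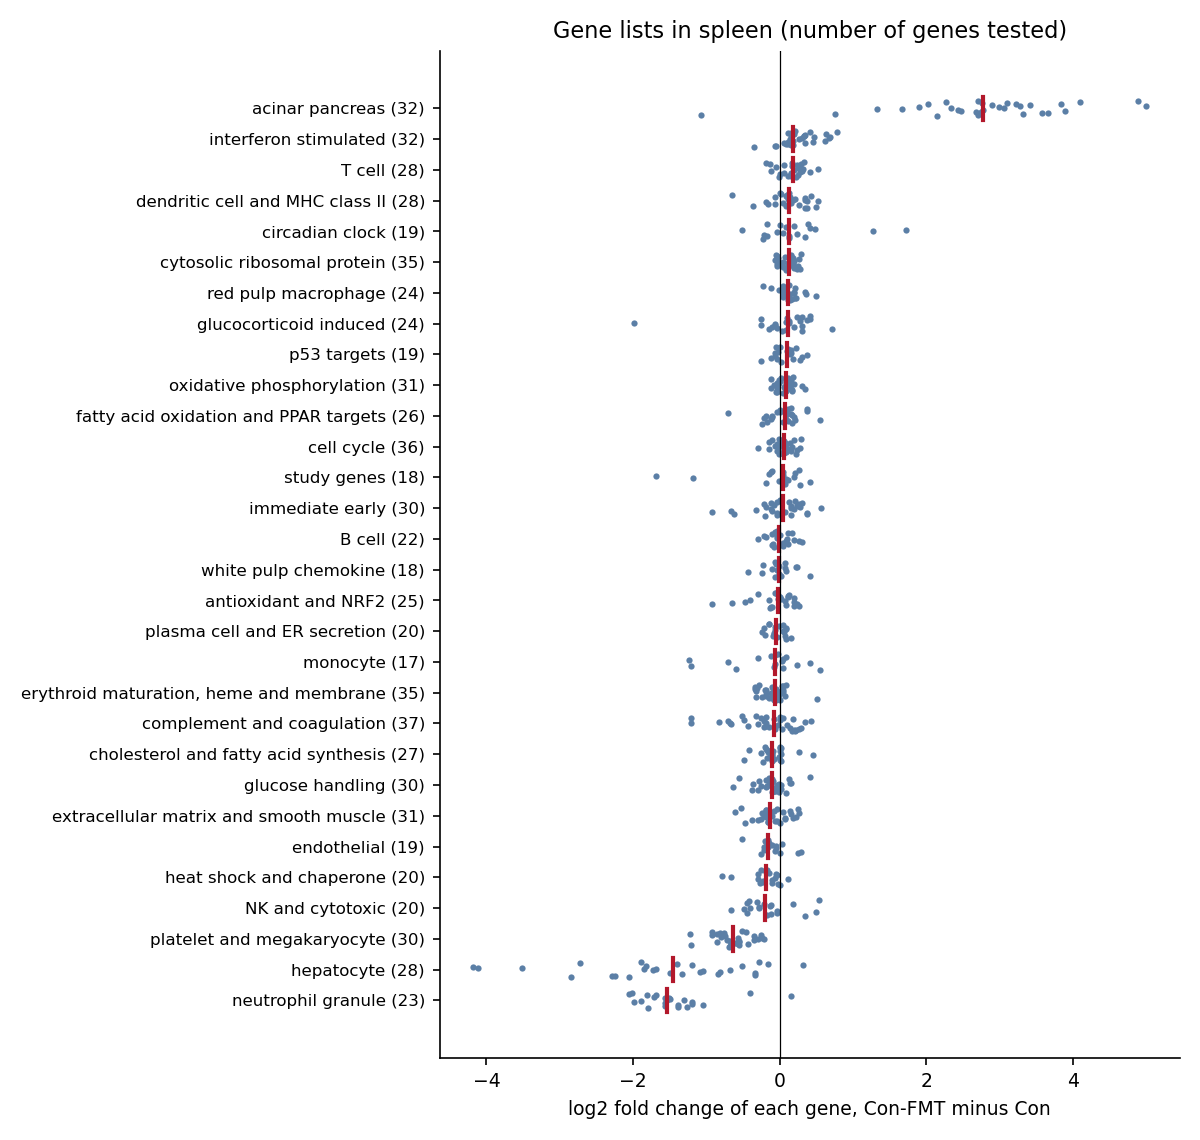
Log2 fold change, Con-FMT minus Con, of each tested gene (points) in 30 gene lists with at least 15 tested genes, with the list median in red and the number of genes tested in brackets. Acinar genes lie to the right, neutrophil, liver and platelet genes to the left, and the medians of the other lists lie between -0.20 and 0.18.

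Of 32 interferon-stimulated genes tested, 0 passed the adjusted threshold. A positive fold change was seen in 29, with a median of 0.18, 5 were higher without overlap (all genes, 6.2%), while 0 had an unadjusted p under 0.05. Xaf1, an interferon-induced regulator of apoptosis, had the largest named value, at 23.2, 17.8 and 29.1 RPKM in Con and 52.4, 29.1 and 42.5 in Con-FMT (0.78, SE 0.453, unadjusted p 0.104). Of 35 ribosomal protein genes, 28 had a positive fold change, with a median of 0.13, and 16 were higher without overlap (all genes, 6.2%), but 0 had an unadjusted p under 0.05. Rpl11 was 1353, 1258 and 1323 in Con and 1625, 1482 and 1675 in Con-FMT (0.28, SE 0.154). Under quantile normalization the ribosomal median was 0.04. Of 36 cell cycle genes, 0 had an unadjusted p under 0.05, with a median of 0.06.

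Glucocorticoid-induced genes, which stress hormones raise, had a median of 0.11 over 24 tested genes, 2 of them higher and 1 lower at an unadjusted p under 0.05 (all genes, 1.15% and 2.68%). In STZ against the same Con libraries the median was 0.62, with 12 higher at that threshold (all genes, 1315 of 12426 in either direction). Ddit4, an inhibitor of mTORC1, was 16.5, 28.0 and 31.7 RPKM in Con and 41.0, 33.7 and 49.7 in Con-FMT (0.72, SE 0.263, unadjusted p 0.0151, limma adjusted p 1), and did not overlap. Mt1, the metal-binding metallothionein, was named after its values were seen. It was 145, 111 and 78.3 in Con, 113, 103 and 128 in Con-FMT and 297, 228 and 211 in STZ, so Con-FMT lay within Con and STZ above both. Txnip, which glucose and glucocorticoids induce, was 103, 140 and 225 in Con and 179, 181 and 241 in Con-FMT (0.42, SE 0.272), with overlap.

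Fatty acid oxidation and PPAR targets (26 tested) had a median of 0.07, and 2 were higher at an unadjusted p under 0.05 (all genes, 1.15%). These were the mitochondrial carnitine carrier Slc25a20, at 8.25, 10.2 and 7.87 RPKM in Con and 11.7, 11 and 11.9 in Con-FMT (0.37, SE 0.138), and the acyl-CoA thioesterase Acot1 (0.55, SE 0.245). Both had a limma adjusted p of 1. Cholesterol and fatty acid synthesis genes (27) had a median of -0.10, with 19 of 27 fold changes negative and 1 lower at an unadjusted p under 0.05 (all genes, 2.68%). Glucose handling genes (30) had a median of -0.10, and the glucose transporter Slc2a3, which neutrophils and platelets also carry, was 33.2, 22.5 and 20.7 in Con and 15.4, 18.2 and 16.8 in Con-FMT (-0.55, SE 0.152, limma adjusted p 0.919). The groups did not overlap for Slc2a3.

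Complement and coagulation genes (37 tested) had a median of -0.08, 1 higher and 8 lower at an unadjusted p under 0.05 (all genes, 1.15% and 2.68%). Serpinc1, the antithrombin of liver, was 0.75, 5.03 and 4.42 RPKM in Con and 0.59, 1.06 and 0.42 in Con-FMT (-1.21, SE 0.38). F5, coagulation factor V, which platelets also store, was 16.4, 9.68 and 7.34 in Con and 5.31, 6.49 and 4.86 in Con-FMT (-0.83, SE 0.264). Both had a limma adjusted p of 0.929. Extracellular matrix and smooth muscle genes (31) had a median of -0.13, 3 of them lower at an unadjusted p under 0.05 (all genes, 2.68%). Timp3, a matrix-bound protease inhibitor, was 34.9, 32.6 and 39.9 in Con and 24.2, 27.0 and 22.3 in Con-FMT (-0.53, SE 0.152, limma adjusted p 0.919), and did not overlap.

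Over the same 12426 genes, STZ against Con gave 18 genes past the adjusted threshold and 1315 at an unadjusted p under 0.05, against 1 and 476 for Con-FMT. Con-FMT against STZ gave 1 and 636. The first of these contrasts shares the Con libraries with the comparison reported here, and the other its Con-FMT libraries. The difference between their counts was not tested.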

How the data were processed

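Spleen mRNA was enriched with oligo(dT) beads and sequenced (Illumina HiSeq). The deposited values are RPKM, which the authors made from reads aligned to reference genes. The study's methods name SOAPaligner and the submitters' processing notes name Bowtie 0.12.2 and mm10. The annotation version is not given in the sources used here. The values carry no read counts and no strand, so depth is unknown and antisense or overlapping genes cannot be told apart.

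Of 19326 lines, 6 with 3 repeated names were left out. Genes at an RPKM of 1 in at least 3 of the 6 libraries were kept. Values were transformed to log2(RPKM + 1), which understates the change of low genes. All 18 libraries, 6 groups of 3, were fitted with limma 3.58.1 (trend) in R 4.3.3 without covariates. The groups thereby share 1 estimate of the spread, since 3 libraries a group give few degrees of freedom. The study's own test, DEGseq, was not run. P-values are two-sided with Benjamini-Hochberg adjustment over all genes tested, at a threshold of 0.05. They measure the spread between libraries, which nothing in the labels ties to separate animals. The fit was also run on simulated data, in which libraries varied independently and each gene had 1 spread shared by all groups. The Con libraries varied more than the Con-FMT libraries, so that run does not cover data like these. Exact permutation served the globin share.

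Named genes are, in each direction, up to 12 past the threshold with groups that do not overlap and a mean of at least 5 RPKM in the higher group. Free places went to the lowest unadjusted p. To these were added 4 genes per list, the study's genes and 7 genes of earlier work. Some genes so chosen are not reported here. The members and lists were chosen with earlier results of these data known. Alternatives were other scalings, pseudocount, filters, fits and libraries left out. Positions are from GENCODE M21 (GRCm38) by symbol.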

Additional observations from a re-analysis of the deposited data

How the results depend on the processing

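The number of genes past the adjusted threshold, 1 as reported, was 4 with a pseudocount of 0.1 (Gdpd3, Kap, Prm2 and Tnp1), 4 without a filter (Kap, Miox, Tfpi2 and Tmc7, of 18423 genes), 0 with an RPKM of 1 in all 6 libraries, which removes Kap, and 3 with only the 6 libraries fitted (Gdpd3, Kap and Nr1d1). Leaving out 1 library gave 1 to 11. The number at an unadjusted p under 0.05, 476 as reported, was 1364 without a filter and 298 to 638 with 1 library left out. Array weights gave 3749 and 5196. That fit did not converge and gave Con replicate 2 a weight of 46 against 0.2 and 0.196 for the other Con libraries. Both counts stayed within 1.5 times under quantile normalization, median centring, rescaling by the summed level without globin genes and a fit without trend. The adjusted count also did so under the study's thresholds.

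With the replicate number as a replicate block, 1 gene passed and 523 had an unadjusted p under 0.05. In the block fit of only the 6 libraries there were 2 (Gdpd3 and Kap) and 851. Libraries of the same number correlated by 0.077, 0.227 and 0.129 in their deviations from the group means. Pairs of different numbers ran from -0.26 to 0.093. Con-FMT replicate 1 correlated more with Con replicate 2 (0.093) than with Con replicate 1. For Con-FMT replicates 2 and 3 the Con library of the same number had the highest value. The labels name no batch behind the numbers, and whether libraries of the same number share one was not tested.

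Of the named genes' log2 fold changes, 10 changed sign under some alternative, all within 0.41 of 0 as reported. Array weights turned Ccl21a to -0.042, Ccr7 to 0.059, Bcl2 to -0.089, Tfrc to 0.008 and Mt1 to -0.038. With 1 library left out the values ran from -0.013 to 0.082 for Cd163, -0.262 to 0.280 for Ccr7, -0.296 to 0.031 for Mki67, -0.104 to 0.177 for Bcl2, -0.506 to 0.096 for Bcl2l1, -0.250 to 0.025 for Slc40a1, -0.037 to 0.166 for Spic, -0.264 to 0.128 for Tfrc and -0.153 to 0.290 for Mt1. The globin list was the one list whose median changed sign under a rescaling, quantile normalization.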

Other observations

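Transcripts of the endocrine pancreas, too low to be tested, were present in libraries of both transplant groups. Ins2, which encodes insulin, was listed at 0 in all 12 libraries of the groups without a transplant, at 2.26, 1.72 and 0.22 RPKM in Con-FMT and at 0.21, 20.0 and 1.58 in A10-FMT (STZ plus microbiota from donors given alginate oligosaccharide). Ins1 was listed at 0 in the same 12 libraries and was 0.74, 0.46 and 0 in Con-FMT. Summed over 8 endocrine genes, Con-FMT held 4.47, 2.82 and 0.39 RPKM, Con at most 0.04 and STZ at most 0.11. The acinar sums of the STZ libraries, 8424, 3836 and 1869 RPKM, were of the size of those in Con-FMT. Without STZ the acinar sums were 2781, 452 and 32.9 in Con and 65.7, 1077 and 656 in A10, where Ins2 was also listed at 0. Con replicate 1 thus lay above Con-FMT replicate 2, at 2628. The A10-FMT sums were 248, 30943 and 1627. The part of pancreatic tissue in the endocrine values was not tested.

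Kap was present in the Con and STZ groups and at or near 0 in all others. It was listed at 0 in every library of A10 (alginate oligosaccharide without STZ), at 0.60, 0.30 and 0 in STZ-A10 (both) and at 0.14, 0 and 0 in A10-FMT. Miox, another kidney transcript, was at 0.15 to 0.44 RPKM in the 6 Con and STZ libraries and listed at 0 in the other 12.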
